A study of Mus musculus with 24 samples.

Results

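Cytotoxic granule and killer receptor genes were followed through 3 lymphocyte populations of the inflamed mouse colon. The set holds 9 genes of the 27179 gene identifiers counted: the granzymes Gzma, Gzmb and Gzmk, the pore former Prf1, the granule membrane protein gene Nkg7, the death ligand gene Fasl, and the receptor genes Cd160, Klrd1 and Klrk1. They were taken by name and matched from their numeric gene identifiers to mouse symbols, and all 9 had counts in at least 1 library.

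RNA was counted in cells sorted from the colonic lamina propria of Nmur1iCre-eGFP mice, in which eGFP reports Nmur1, the receptor gene for neuromedin U (NMU), a neuropeptide. All had been given 3% dextran sulfate sodium (DSS), an agent that damages the lining of the colon, over 5 days, with 3 days of water after it. In that time 4 mice, numbered 1 to 4, received intraperitoneal NMU every other day, and 4 mice, numbered 5 to 8, received the vehicle phosphate-buffered saline (PBS). The sample labels name these 4 mice per treatment, while the design text counts 3, and neither gives their age or sex. Each mouse gave eGFP+ group 2 innate lymphoid cells (ILC2, sorted as CD45+ Lin- CD90.2+ CD127+ KLRG1+), eGFP+ CD4 T cells (NMUR1+ below) and eGFP- CD4 T cells (NMUR1- below), both CD4 populations sorted as CD45+ CD3+ CD5+ CD4+. This made 24 libraries in 6 groups of 4, and every group therefore came from animals with DSS colitis in recovery. Levels are in CPM (counts scaled to a common library size, after the TMM method of edgeR).

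Killer lymphocytes store granzymes, which are serine proteases, with perforin in secretory granules and release them onto a bound target cell, where perforin opens the membrane to the granzymes. Fas ligand kills through the receptor Fas without granules. Natural killer (NK) and CD8 T cells are the usual users of this machinery, and surface receptors such as NKG2D (Klrk1) and CD94 (Klrd1) read stress and class I ligands on the target. CD4 T cells and innate lymphoid cells of the gut can carry parts of it.

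Total counts ran from 8485266 to 17854961 per library. Of the T cell genes, Cd3e ran from 0 to 12.2 CPM, Cd4 from 0 to 13.4 CPM and Cd3g from 16.7 to 123 CPM in ILC2 libraries, against 698 to 1034 CPM, 468 to 857 CPM and 618.1 to 1191 CPM in both CD4 populations, and Gata3 ran from 4272 to 6607 CPM in ILC2 and from 290.1 to 1971 CPM in CD4 libraries. The share of immunoglobulin counts was 0.784% to 30.4% in NMUR1+ libraries, 0.146% to 5.58% in NMUR1- libraries, and in ILC2 0.0241% to 0.867% in NMU mice against 0.665% to 7.93% in PBS mice. The NMUR1+ libraries of mice 1, 4, 5 and 7 were above 20%, and comparisons that use them are also given without them where a call changed. Among the NK cell and ILC1 markers, Klra4, Klra7, Klra8, Klra9 and Eomes had 0 counts in all 8 ILC2 libraries, Klrb1c ran from 0 to 5.30 CPM there, and Ncr1 from 0 to 23.7 CPM. Ncr1 had 0 counts in all 8 NMUR1+ libraries and reached 1.26 CPM in NMUR1- cells. Cd8a reached 0.0833 CPM in ILC2 and 10.9 CPM in CD4 libraries, and Cd8b1 ran from 0 to 5.07 CPM in ILC2 and from 2.28 to 12.6 CPM in CD4 libraries. In bulk RNA of this kind, fewer cells that express a gene and less RNA per cell cannot be told apart.

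The set split by population. Gzmb, Gzmk and Fasl were far higher in CD4 T cells than in ILC2, Klrk1 and Prf1 were higher in ILC2, and Gzma was present in all 3 populations, with ILC2 levels from 0.0792 to 1194 CPM between mice. By population means per kilobase of exon, the ILC2 order began with Nkg7 (273 CPM per kb), Gzma (196 CPM per kb) and Klrk1 (48.9 CPM per kb). The place of Gzma in ILC2 leans on mouse 3, which had 1194 CPM against 186 CPM in the next library of the NMU mice. NMUR1+ cells began with Gzmb (1040 CPM per kb), Nkg7 (260.4 CPM per kb) and Gzma (242 CPM per kb), and NMUR1- cells with Gzmb (499 CPM per kb), Nkg7 (448 CPM per kb) and Fasl (99.3 CPM per kb). No gene of the set passed the test of NMU against PBS in any population. Of 39 tested partners of the set, 4 were higher with NMU in ILC2 and none lower, against 45 higher and 29 lower of all 11205 genes tested (0.660% in all). Among the 4 were Stx11 and Sytl2, which act in granule docking and fusion. Sytl2 and Tnfsf10 did not pass in every fit with a mouse left out. The set and its partner lists were chosen with earlier results of these data known, so their shares beside all genes only describe these data.

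**Figure D1:**
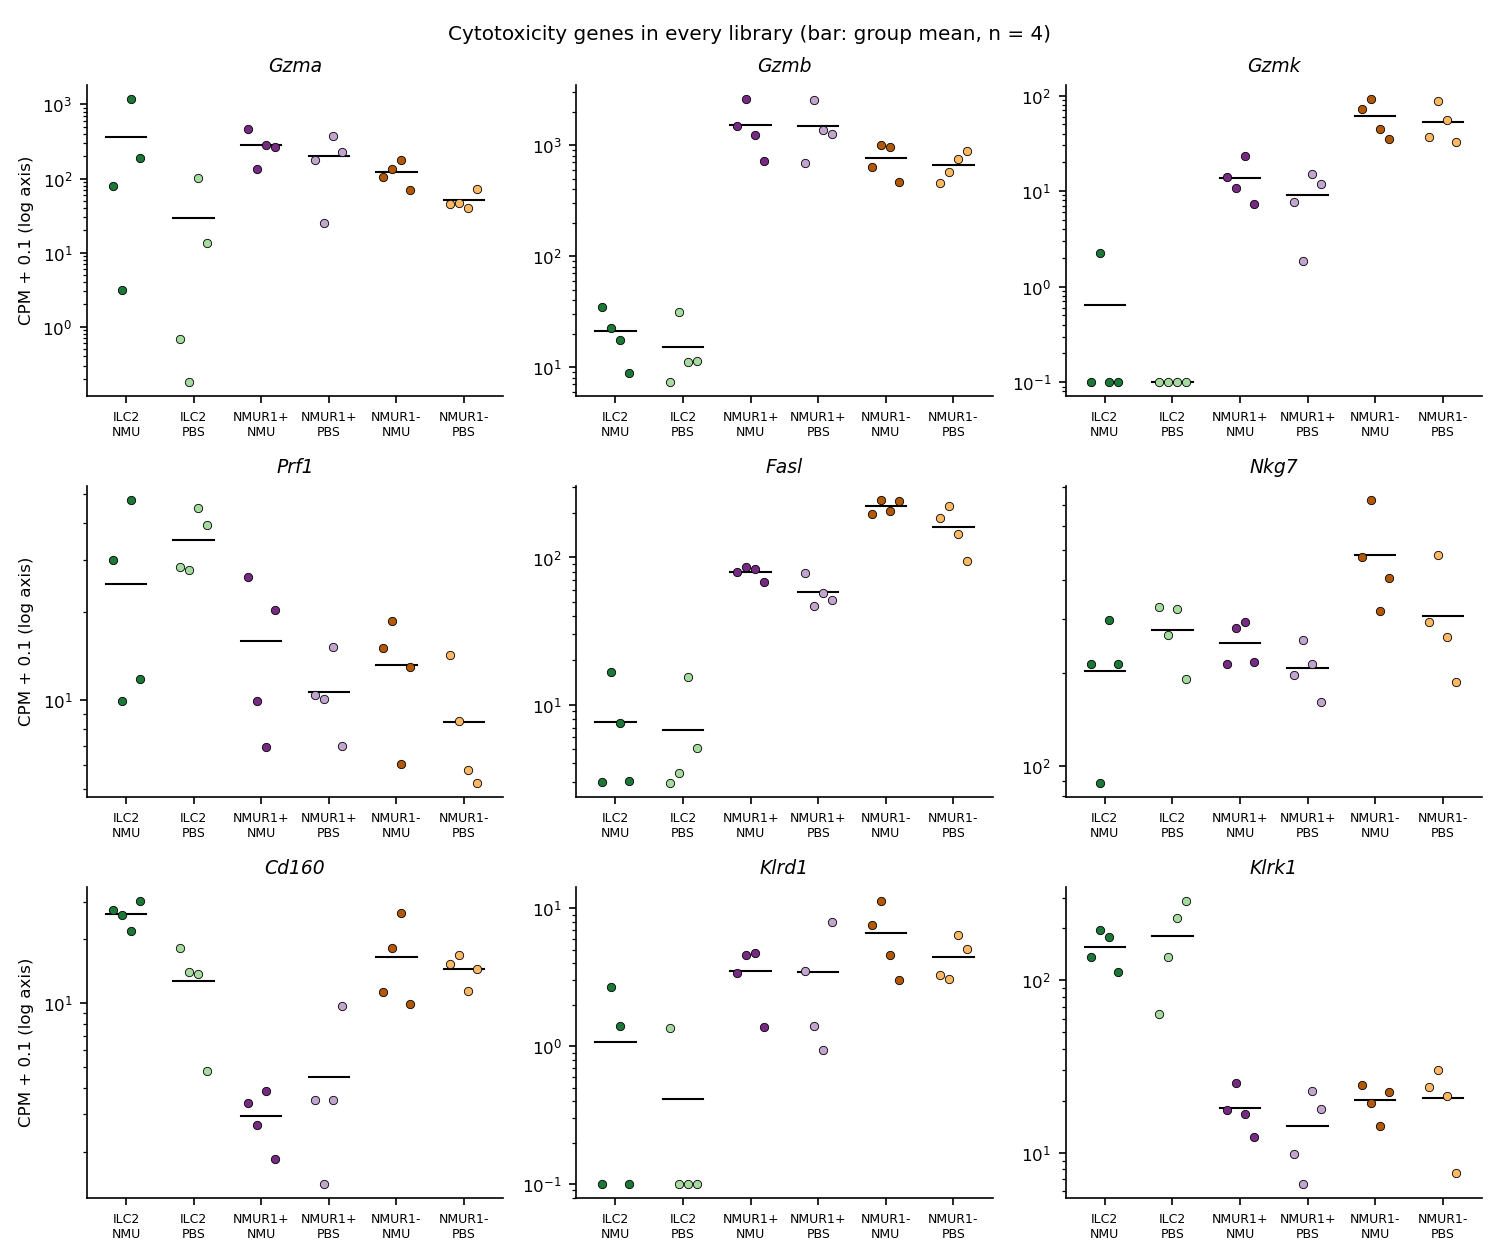
Levels of the 9 genes in each of the 24 libraries as CPM + 0.1 on a log axis, by population and treatment, with a bar at each group mean (n = 4). Gzmb, Gzmk and Fasl sit lowest in ILC2, Klrk1 sits highest there, and the ILC2 points of Gzma run from 0.0792 to 1194 CPM.

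The granzymes sit at 2 places of the mouse genome. Gzma (gene 14938, chromosome 13, 113093824 to 113100981) and Gzmk (gene 14945, chromosome 13, 113171630 to 113180965) are neighbours on chromosome 13, and Gzmb (gene 14939) lies on chromosome 14 from 56258836 to 56262334, in RefSeq's coordinates for GRCm38.p6. The 250 bases before the RefSeq start of each are shown because these 3 related genes ordered the populations differently. They are printed 5′ to 3′ on the minus strand, the strand of all 3 genes, for chr14:56262335-56262584 (Gzmb), chr13:113100982-113101231 (Gzma) and chr13:113180966-113181215 (Gzmk). Capitals mark the letters TGTGGT on either strand, the core recognised by RUNX factors, and TGANTCA, the AP-1 element.
Gzmb: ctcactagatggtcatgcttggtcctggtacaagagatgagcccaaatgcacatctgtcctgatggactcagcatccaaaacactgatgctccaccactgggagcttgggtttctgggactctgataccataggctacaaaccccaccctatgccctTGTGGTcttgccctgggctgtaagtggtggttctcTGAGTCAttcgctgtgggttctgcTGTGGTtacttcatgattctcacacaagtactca
Gzma: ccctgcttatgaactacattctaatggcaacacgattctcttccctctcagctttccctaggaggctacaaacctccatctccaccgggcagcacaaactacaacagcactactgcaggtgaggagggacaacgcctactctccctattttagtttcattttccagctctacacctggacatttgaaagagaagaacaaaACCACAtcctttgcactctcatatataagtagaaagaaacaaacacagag
Gzmk: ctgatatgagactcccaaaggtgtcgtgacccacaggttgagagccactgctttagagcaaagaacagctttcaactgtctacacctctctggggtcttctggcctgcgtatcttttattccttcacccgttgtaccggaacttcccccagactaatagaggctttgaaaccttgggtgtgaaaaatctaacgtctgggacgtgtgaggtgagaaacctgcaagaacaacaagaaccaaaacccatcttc
The Gzmb window held TGTGGT at -93 and -34 and TGANTCA at -58, counted from the RefSeq start, and none of these overlap. Gzma held TGTGGT on the opposite strand at -50, and the Gzmk window held neither. Of 32851 mouse promoter windows of the same length, 14.0% held TGTGGT and 6.75% held TGANTCA on either strand. These matches describe letters and no binding was measured. Windows were also matched for 5 other genes of the set. Positions in these genes count back from the end of the window. The Prf1 and Klrk1 windows end inside the RefSeq gene, and a second Cd160 window lies within it. Those of Prf1 and Nkg7 and the first of Cd160 overlap annotated exons. Prf1 (-130), Nkg7 (-83), Cd160 (-76, and -101 in the second window) and Klrk1 (-129) held TGTGGT, as did Gzma and Gzmb. Nkg7 also held the T-box letters AGGTGTGA at -14, which 1.12% of all windows held, and the STAT letters TTCNNNGAA, found in 7.02% of all windows, stood in Nkg7 (-220) and in the second Cd160 window (-234). The Fasl window held none of the 4.

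Gzmb encodes the granzyme that cuts after aspartate and triggers apoptosis. In NMUR1+ cells it had 1485, 2619, 1226 and 722 CPM in NMU mice 1 to 4 against 694, 2552, 1382 and 1270 CPM in PBS mice 5 to 8. In NMUR1- cells it had 641, 995, 970 and 465 CPM in NMU mice against 459, 572, 744 and 890.1 CPM in PBS mice. ILC2 held far less, with 35.1, 22.3, 17.6 and 8.87 CPM in NMU mice against 7.25, 31.2, 11.0 and 11.2 CPM in PBS mice. No ILC2 library reached any CD4 library, and within each population the NMU and PBS libraries overlapped. Gzmb was lower in ILC2 than in NMUR1+ cells by a log2 difference of -6.39 (SE 0.44, edgeR adjusted p = 8.67e-10) and than in NMUR1- cells by -5.33 (SE 0.42, edgeR adjusted p = 3.81e-09). Between the CD4 populations it was higher in NMUR1+ cells in 8 of 8 mice, with a log2 difference of 1.06 (SE 0.35) that missed the threshold (edgeR adjusted p = 0.0682). With the mouse as a block, which pairs the populations of 1 animal, that difference was 0.92 and passed (edgeR adjusted p = 0.0131).

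Gzmk encodes a trypsin-like granzyme. It had 72.9, 92.6, 44.3 and 35.0 CPM in NMUR1- cells of NMU mice against 36.7, 88.1, 55.6 and 32.8 CPM in those of PBS mice. NMUR1+ cells had 13.9, 10.6, 23.4 and 7.18 CPM with NMU against 7.60, 1.74, 15.0 and 11.9 CPM with PBS. ILC2 had 2.14 CPM, from 19 counts, in mouse 2 and 0 counts in the other 7 mice. The ILC2 library of mouse 2 also held the highest sum of the 4 CD8 T cell markers in ILC2, 8.11 CPM from Cd8b1 and Crtam with Cd8a at 0 counts, against 6.75 to 28.5 CPM in CD4 libraries, and the part of such cells in its Gzmk and Klrd1 counts was not tested. The 3 populations thus stood in the same order in every mouse, NMUR1- cells above NMUR1+ cells above ILC2. NMUR1+ cells were lower than NMUR1- cells by -2.36 on the log2 scale (SE 0.59, edgeR adjusted p = 0.0172), with no overlap between their libraries. In PBS mice, where ILC2 had no count, 3 counts over the group would be 0.0620 CPM, so Gzmk was at least 128-fold lower in ILC2 than in NMUR1+ cells and at least 829-fold lower than in NMUR1- cells. The fitted log2 differences of ILC2, -7.34 and -9.70 (edgeR adjusted p = 7.73e-06 and 2.06e-07), depend on the prior count that stands in for 0.

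Gzma, another trypsin-like granzyme, behaved unlike Gzmb and Gzmk. In ILC2 it had 78.6, 3.04, 1194 and 186 CPM in NMU mice 1 to 4, against 0.583, 0.0792, 102.1 and 13.4 CPM in PBS mice 5 to 8. NMUR1+ cells had 461, 135, 283 and 269 CPM with NMU against 175, 24.9, 377 and 224 CPM with PBS. NMUR1- cells had 105, 136, 178 and 70.5 CPM with NMU against 44.8, 46.4, 39.9 and 71.2 CPM with PBS. The ILC2 libraries of PBS mice 5 and 6 were near 0 while that of NMU mouse 3 was the highest of all 24 libraries, and all 6 groups overlapped with their neighbours in the order of means. No population differed from another past the threshold: the log2 difference was -1.22 for ILC2 over NMUR1+ cells (SE 0.96, edgeR adjusted p = 0.339), 0.39 for ILC2 over NMUR1- cells (SE 0.95, edgeR adjusted p = 0.782) and 1.61 for NMUR1+ over NMUR1- cells (SE 0.97, edgeR adjusted p = 0.375). In the ILC2 over NMUR1- comparison the sign turned with the mouse as a block (-1.27, edgeR adjusted p = 0.389). Gzma overlaps Cdc20b, which had 24 counts over all 24 libraries.

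**Figure D2:**
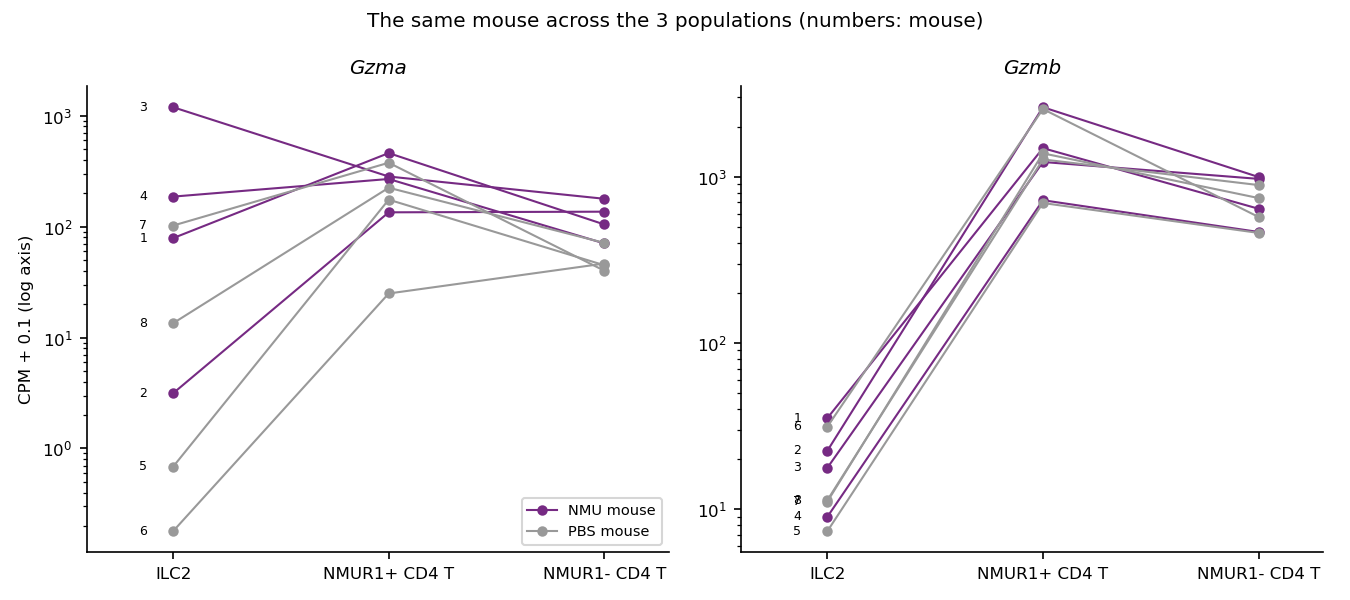
Gzma and Gzmb in each mouse (CPM + 0.1, log axis), each line joining the 3 populations of 1 mouse, NMU mice in purple and PBS mice in grey. All 8 Gzmb lines climb steeply to the CD4 populations and are higher in NMUR1+ than in NMUR1- cells, whereas the Gzma lines start between 0.0792 and 1194 CPM in ILC2 and cross.

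Prf1 encodes perforin, without which released granzymes do not enter the target. It was one of the genes with a higher level in ILC2, at 29.9, 9.80, 47.9 and 11.7 CPM in NMU mice against 28.3, 27.6, 44.8 and 39.1 CPM in PBS mice. NMUR1+ cells ran from 6.86 to 26.1 CPM and NMUR1- cells from 5.12 to 18.4 CPM. The ILC2 libraries of PBS mice lay above every CD4 library, while those of NMU mice 2 and 4 lay within the CD4 range. Prf1 was higher in ILC2 than in NMUR1+ cells by 1.20 on the log2 scale (SE 0.35, edgeR adjusted p = 0.00858) and than in NMUR1- cells by 1.50 (SE 0.35, edgeR adjusted p = 0.00140). The populations of 6 of 8 mice followed that direction in both comparisons. In NMU mice alone the differences were 0.66 and 0.93 and did not pass (edgeR adjusted p = 0.350 and 0.162). NMUR1+ and NMUR1- cells differed by 0.30 (SE 0.34, edgeR adjusted p = 0.706).

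Nkg7 encodes a granule membrane protein that takes part in granule release. ILC2 had 214, 88.2, 298 and 214 CPM with NMU against 328, 266, 323 and 192 CPM with PBS, and NMUR1+ cells had 214, 279.5, 294 and 217 CPM with NMU against 198, 257, 214 and 162 CPM with PBS. NMUR1- cells had 476, 729, 318 and 406 CPM with NMU against 294, 483, 263 and 187 CPM with PBS. Nkg7 was lower in NMUR1+ than in NMUR1- cells in 8 of 8 mice (log2 difference -0.75, SE 0.22, edgeR adjusted p = 0.0346) and lower in ILC2 than in NMUR1- cells (-0.70, SE 0.22, edgeR adjusted p = 0.0140), in 5 of 8 mice. ILC2 and NMUR1+ cells differed by 0.06 with a 95% interval of -0.40 to 0.51 (edgeR adjusted p = 0.865). The difference between the CD4 populations no longer passed without mouse 1, 4, 5, 6 or 7 (edgeR adjusted p up to 0.115), and that of ILC2 from NMUR1- cells without mouse 2 or 6 (edgeR adjusted p = 0.0735 and 0.0716). In PBS mice alone the difference of ILC2 from NMUR1- cells was -0.15 (edgeR adjusted p = 0.800).

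Fasl, the death ligand gene, followed the order of Gzmk. NMUR1- cells had 197, 247, 208 and 243 CPM with NMU against 185, 222, 144 and 94.0 CPM with PBS. NMUR1+ cells had 79.8, 85.7, 84.0 and 67.6 CPM with NMU against 78.1, 46.4, 56.9 and 51.3 CPM with PBS. ILC2 had 2.87, 16.7, 7.46 and 2.93 CPM with NMU against 2.83, 3.33, 15.2 and 5.02 CPM with PBS. The 3 populations did not overlap with each other. NMUR1+ cells were lower than NMUR1- cells by -1.48 on the log2 scale (SE 0.34, edgeR adjusted p = 0.00830). ILC2 were lower than NMUR1+ cells by -3.28 (SE 0.37, edgeR adjusted p = 4.87e-07) and lower than NMUR1- cells by -4.76 (SE 0.39, edgeR adjusted p = 4.02e-09). Averaged over both treatments, its receptor gene Fas was also lower in ILC2, by -0.82 against NMUR1+ cells (edgeR adjusted p = 1.64e-04) and by -0.81 against NMUR1- cells (edgeR adjusted p = 1.73e-04). Within ILC2, Fas had a log2 difference of 1.03 for NMU over PBS (SE 0.24), which did not pass (edgeR adjusted p = 0.104).

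Of the receptor genes, Klrk1 encodes NKG2D, which binds stress-induced ligands of the RAE-1 and H60 families. ILC2 had 137, 196, 178 and 112 CPM with NMU against 63.9, 137, 230.8 and 289 CPM with PBS. NMUR1+ cells ran from 6.47 to 25.4 CPM and NMUR1- cells from 7.54 to 30.1 CPM. Every ILC2 library lay above every CD4 library. Klrk1 was higher in ILC2 than in NMUR1+ cells by 3.39 (SE 0.33, edgeR adjusted p = 3.92e-08) and than in NMUR1- cells by 3.04 on the log2 scale (SE 0.32, edgeR adjusted p = 1.20e-07), and the CD4 populations differed by -0.36 with a 95% interval of -0.99 to 0.27 (edgeR adjusted p = 0.572). Ncr1, an NK cell and ILC marker, was also higher in ILC2, by 4.16 over NMUR1- cells (SE 0.97, edgeR adjusted p = 0.00235). Of 7 tested NK cell and ILC1 markers it was the 1 that was higher there, and 2, Eomes and Tbx21, were lower. Of all genes 16.4% were higher and 24.1% lower. The median log2 difference was -0.84 over the 7 markers and -0.12 over all genes. Over the 11 NK cell and ILC1 markers the summed level ran from 33.4 to 125.7 CPM in ILC2, 48.7 to 78.8 CPM in NMUR1+ and 92.9 to 133.6 CPM in NMUR1- libraries, and the part of such cells in the Klrk1 and Prf1 differences was not tested.

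Cd160 encodes a receptor of the ligands HVEM and class I. Its level was lowest in NMUR1+ cells. They had 3.28, 2.56, 3.76 and 1.75 CPM with NMU against 3.39, 1.31, 3.38 and 9.57 CPM with PBS. NMUR1- cells had 11.2, 18.1, 26.6 and 9.84 CPM with NMU against 15.1, 16.8, 11.3 and 14.3 CPM with PBS. ILC2 had 27.4, 25.8, 21.7 and 30.3 CPM with NMU against 18.0, 13.9, 13.7 and 4.71 CPM with PBS. ILC2 and NMUR1- cells overlapped, and NMUR1+ cells lay below every NMUR1- library. NMUR1+ cells were lower than NMUR1- cells by -2.12 on the log2 scale (SE 0.35, edgeR adjusted p = 3.56e-04), in 8 of 8 mice. ILC2 were higher than NMUR1+ cells by 2.36 (SE 0.35, edgeR adjusted p = 1.07e-05), in 7 of 8 mice, and differed from NMUR1- cells by 0.24 (SE 0.33, edgeR adjusted p = 0.595).

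Klrd1 encodes CD94, which pairs with NKG2 chains such as that of Klrc1 and binds Qa-1. It was low everywhere, at 0.845 to 7.83 CPM in NMUR1+ and 2.93 to 11.3 CPM in NMUR1- libraries. In ILC2 it had 2.59 and 1.30 CPM in NMU mice 2 and 3 and 1.25 CPM in PBS mouse 5, 55 counts in all, and 0 counts in the other 5 libraries. It was lower in ILC2 than in NMUR1+ cells (log2 difference -2.60, SE 0.91, edgeR adjusted p = 0.0274) and than in NMUR1- cells (-3.26, SE 0.93, edgeR adjusted p = 0.00746). The first of these no longer passed without mouse 1, 3, 6 or 8 (edgeR adjusted p up to 0.119).

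Counted over the set, 4 of 9 genes were lower in NMUR1+ than in NMUR1- cells (Gzmk, Fasl, Nkg7 and Cd160) and none was higher, where 2.83% of all 13509 genes tested were lower and 5.49% higher (8.31% in all). The libraries of 3 of them, Gzmk, Fasl and Cd160, did not overlap, which held for 3.3% of all genes. The median log2 difference was -0.65 over the set and -0.01 over all genes. Without the libraries of high immunoglobulin content, which left 4 NMUR1+ and 8 NMUR1- libraries, Cd160 was the 1 gene that passed, and the other 3 had log2 differences of the same sign with edgeR adjusted p = 0.191 for Gzmk, 0.103 for Fasl and 0.343 for Nkg7. These counts come from fits that do not pair libraries by mouse. With the mouse as a block Gzmb also passed, higher in NMUR1+ cells (log2 difference 0.92, edgeR adjusted p = 0.0131), a direction seen in 8 of 8 mice. Between ILC2 and NMUR1+ cells 3 genes were higher in ILC2 (Prf1, Cd160 and Klrk1) and 4 lower (Gzmb, Gzmk, Fasl and Klrd1), against 15.1% and 23.5% of all genes (38.6% in all), with a median of -1.22 against -0.10. Between ILC2 and NMUR1- cells 2 were higher (Prf1 and Klrk1) and 5 lower (Gzmb, Gzmk, Fasl, Nkg7 and Klrd1), against 16.4% and 24.1% (40.5% in all), with a median of -0.70 against -0.12. Libraries did not overlap for 3 of 9 genes in the comparison with NMUR1+ cells (10.2% of all genes) and for 5 of 9 in that with NMUR1- cells (14.4%). These comparisons share libraries with each other and are not independent.

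**Figure D3:**
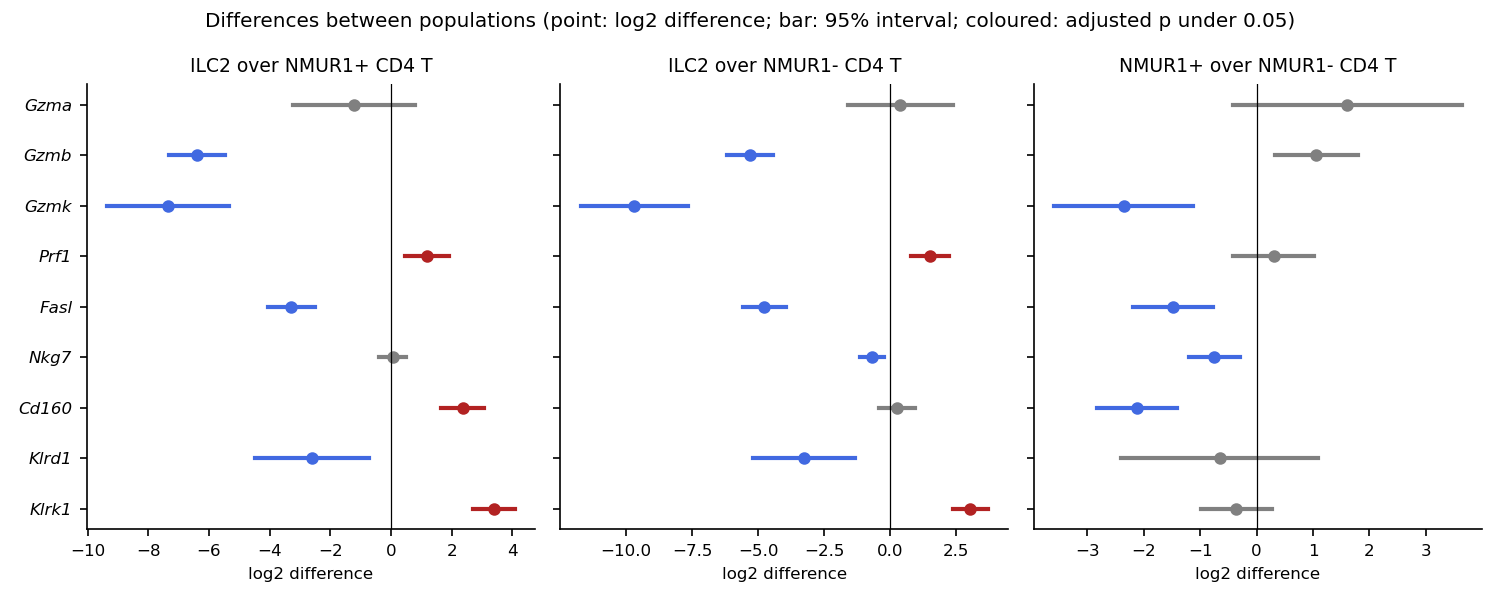
Log2 differences of the 9 genes between populations in the fit of 24 libraries, with 95% intervals, for ILC2 over NMUR1+, ILC2 over NMUR1- and NMUR1+ over NMUR1- cells. Red and blue mark genes higher and lower at an edgeR adjusted p under 0.05. Gzmb, Gzmk and Fasl lie left of 0 and Klrk1 and Prf1 right of 0 in both ILC2 panels, and Gzmk, Fasl, Nkg7 and Cd160 lie left of 0 in the last.

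The partners of the set differed between populations as well. Of 4 tested granule cargo genes beyond the set, 1 was lower and 1 higher in NMUR1+ than in NMUR1- cells, against 2.83% and 5.49% of all genes. Ctsw, a cathepsin of cytotoxic cells, was lower in NMUR1+ than in NMUR1- cells (-1.32, SE 0.28, edgeR adjusted p = 0.00336) and in ILC2 than in NMUR1- cells (-1.44, SE 0.28, edgeR adjusted p = 2.06e-04), and Srgn, the granule proteoglycan, was higher in NMUR1+ than in NMUR1- cells by 0.35 (edgeR adjusted p = 0.00906). Gzmd, Gzmg and Gzmn had 0 counts in every library, and Gzmc reached 11.8 CPM in CD4 cells and 0.667 CPM in ILC2. Of 9 tested genes for granule maturation and release, 5 were lower in ILC2 than in NMUR1+ cells and none higher, against 23.5% and 15.1% of all genes. They included Rab27a, which tethers granules to the membrane (-1.77, SE 0.14, edgeR adjusted p = 6.53e-10), and Ctsc, which activates pro-granzymes (-1.52, SE 0.18, edgeR adjusted p = 3.68e-07). In the comparison of ILC2 with NMUR1- cells 5 of the 9 were lower and 2 higher, against 24.1% and 16.4% of all genes. The higher ones were Stxbp2, the partner of Stx11 in granule fusion (0.33, edgeR adjusted p = 0.0101), and Lamp1, a granule membrane protein gene (0.30, edgeR adjusted p = 0.0193), which no longer passed without mouse 2 or 6 (edgeR adjusted p up to 0.0660). The inhibitor gene Serpinb9, whose product blocks granzyme B, was higher in ILC2 than in NMUR1+ cells by 1.56 (SE 0.17, edgeR adjusted p = 1.61e-07) and than in NMUR1- cells by 0.98 (SE 0.17, edgeR adjusted p = 6.06e-05), and it was lower in NMUR1+ than in NMUR1- cells (-0.59, SE 0.17, edgeR adjusted p = 0.0310). Between the CD4 populations, Srgn no longer passed without mouse 2, 6 or 7 and Serpinb9 without mouse 2, 5, 6 or 8 (edgeR adjusted p up to 0.0683 and 0.107), and Serpinb9 also missed without the libraries of high immunoglobulin content (0.122).

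Of 14 tested further killer receptors and adaptors, 2 were lower and 2 higher in NMUR1+ than in NMUR1- cells, against 2.83% and 5.49% of all genes. Klrc1, the NKG2A partner of CD94, was lower (-1.53, SE 0.45, edgeR adjusted p = 0.0341), and the adaptor gene Tyrobp was higher (2.31, SE 0.32, edgeR adjusted p = 6.08e-05). Macrophages also use Tyrobp, and the summed macrophage and dendritic cell markers ran from 800 to 2479 CPM in NMUR1+ against 218 to 902 CPM in NMUR1- libraries; their part in the Tyrobp difference was not tested. Tbx21, the gene for the transcription factor T-bet of type 1 lymphocytes, was lower in NMUR1+ cells (-0.86, SE 0.26, edgeR adjusted p = 0.0397) and in ILC2 (-0.84, SE 0.26, edgeR adjusted p = 0.0116) than in NMUR1- cells. Between the CD4 populations Tbx21 no longer passed without mouse 1, 4, 6, 7 or 8 and Klrc1 without mouse 1, 2, 4, 5, 7 or 8 (edgeR adjusted p up to 0.123 and 0.148), nor either without the libraries of high immunoglobulin content (0.211 and 0.425). In ILC2 against NMUR1- cells Tbx21 missed without mouse 1 or 4 (edgeR adjusted p up to 0.0754). Of 7 tested transcription factor genes, 2 were higher and 4 lower in ILC2 than in NMUR1+ cells, against 15.1% and 23.5% of all genes. Compared with NMUR1- cells 2 were higher and 4 lower, against 16.4% and 24.1%. Hopx was lower in ILC2 by -4.65 against NMUR1+ and -4.33 against NMUR1- cells (edgeR adjusted p = 5.69e-09 and 1.11e-08), and Prdm1 by -1.51 and -1.17 (edgeR adjusted p = 1.84e-04 and 0.00182). Runx3 was higher in ILC2 by 0.58 and 0.87 (edgeR adjusted p = 1.14e-04 and 5.00e-07), and Id2 by 0.86 and 1.72 (edgeR adjusted p = 2.31e-04 and 2.29e-08). Ifng, a cytokine that often accompanies cytotoxicity, was lower in ILC2 than in NMUR1+ cells (-2.71, SE 0.72, edgeR adjusted p = 0.00583) and than in NMUR1- cells (-4.81, SE 0.79, edgeR adjusted p = 7.46e-05). Tnfsf10, the gene for the death ligand TRAIL, went the other way, higher in ILC2 by 1.39 and 1.76 (edgeR adjusted p = 2.33e-05 and 9.25e-07).

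Across the 24 libraries, which share mice and fall into 3 populations, Fasl and Gzmk moved most closely together (r = 0.962) and Gzmb and Klrk1 most oppositely (r = -0.902), a description that mainly restates the populations. Among the genes with levels most like Gzmb were Cd247 (r = 0.971) and Sgip1 (r = 0.966). Gzmk was most like Ms4a4b (r = 0.970), Fasl most like Gdi2 and Il12rb2 (r = 0.956 each), and Klrk1 most like Mycbp2 (r = 0.927). For Cd160 the closest was Arap2 (r = 0.897), for Klrd1 Otub1 (r = 0.885), and the closest of Prf1 (Aff1, r = 0.813), Gzma (Tox2, r = 0.804) and Nkg7 (Fam189b, r = 0.795) were less alike.

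Within ILC2, NMU was compared with PBS for the 7 genes that passed the filter on low counts. Gzmk and Klrd1 did not pass it. None of the 7 passed the test, where 0.660% of 11205 genes did, and the median log2 difference was 0.15 over the 7 and -0.03 over all genes. Gzma had the largest difference, 3.63, but its SE of 2.20 and 95% interval of -1.64 to 8.90 span 0 (edgeR adjusted p = 0.602), and without mouse 3 it was 1.62 and without mouse 7 it was 6.26. Cd160 averaged 26.3 ± 3.57 CPM in NMU mice, against 12.6 ± 5.61 CPM in PBS mice (SD over 4 libraries each). It was the 1 gene of the 7 whose libraries did not overlap, as did those of 9.36% of all genes, and its log2 difference of 1.05 (SE 0.42, unadjusted p = 0.0297) failed the correction (edgeR adjusted p = 0.333). For Gzmb (0.44, SE 0.55), Prf1 (-0.52, SE 0.48), Fasl (0.15, SE 0.86), Nkg7 (-0.46, SE 0.32) and Klrk1 (-0.24, SE 0.39) the intervals included 0, with edgeR adjusted p from 0.633 to 0.971.

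In NMUR1+ cells none of the 9 genes and none of 12061 genes in all passed (0%), with 307 genes at an unadjusted p under 0.05 and 2 passing by DESeq2, neither from the set. Fasl averaged 79.3 ± 8.15 CPM in NMU mice, against 58.2 ± 13.9 CPM in PBS mice (SD over 4 libraries each), and its log2 difference of 0.45 (SE 0.18, unadjusted p = 0.0318) had an edgeR adjusted p of 1. In NMUR1- cells none of the 9 and none of 12103 genes passed (0%), with 877 at an unadjusted p under 0.05. Gzma averaged 122 ± 45.9 CPM in NMU mice, against 50.6 ± 14.0 CPM in PBS mice, and NMU mouse 4 lay just below PBS mouse 8, so the groups overlapped. Its log2 difference was 1.27 (SE 0.30, 95% interval 0.60 to 1.94, unadjusted p = 0.00190), the edgeR adjusted p was 0.577, and DESeq2, which passed 21 genes, passed it with an adjusted p of 0.00916. The other 8 genes had log2 differences from -0.04 for Klrk1 to 0.65 for Nkg7, and the median was 0.47 over the 9 and 0.01 over all genes.

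**Figure D4:**
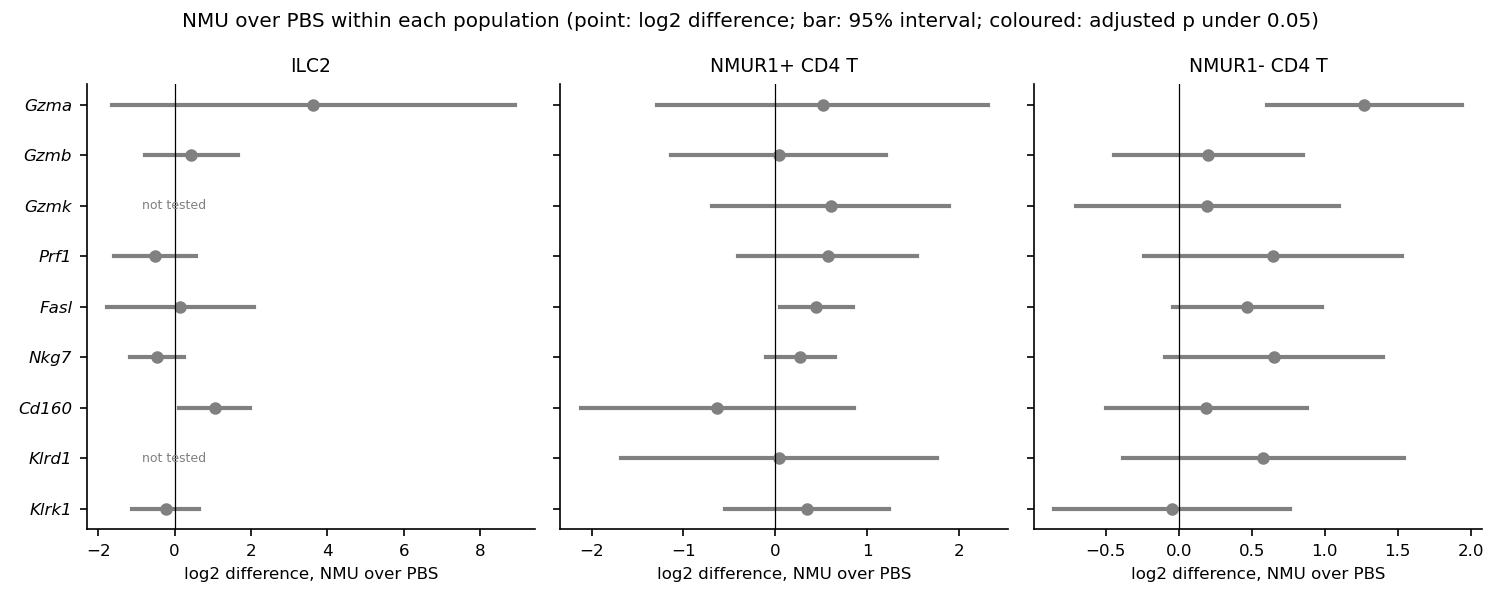
Log2 differences of NMU over PBS with 95% intervals for the 9 genes in NMUR1+ and NMUR1- cells and the 7 tested in ILC2, grey where the edgeR adjusted p was not under 0.05. Gzmk and Klrd1 were not tested in ILC2. All points are grey, the widest interval is that of Gzma in ILC2 (-1.64 to 8.90), and the intervals of Cd160 in ILC2, Fasl in NMUR1+ and Gzma in NMUR1- cells lie right of 0.

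The NMU effects were also compared between populations. None of the 9 genes differed past the threshold between ILC2 and NMUR1+ cells, where 0.725% of 13509 genes did, between ILC2 and NMUR1- cells (0.533%), or between NMUR1+ and NMUR1- cells (0%). The difference for Cd160 between ILC2 and NMUR1+ cells was 1.69 (SE 0.67, unadjusted p = 0.0191, edgeR adjusted p = 0.254). For Nkg7 between ILC2 and NMUR1- cells it was -1.10 (SE 0.44, unadjusted p = 0.0196, edgeR adjusted p = 0.305). The effect of NMU on Gzma in ILC2 exceeded that in NMUR1- cells by 2.38 with an SE of 1.92 (edgeR adjusted p = 0.752), and the difference was 0.57 without mouse 3 and 5.09 without mouse 7.

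Of the 39 tested partners, the 4 that passed with NMU in ILC2 were all higher, where 0.660% of all genes passed. The partner lists were chosen with earlier results of these data known, so this count is a description. Stx11 encodes a syntaxin needed for cytotoxic granules to fuse with the membrane. It had 353, 257, 365 and 304 CPM in ILC2 of NMU mice 1 to 4 against 107, 103, 81.3 and 106 CPM in those of PBS mice 5 to 8, and the groups stood well apart. Its log2 difference was 1.67 (SE 0.15, edgeR adjusted p = 0.00156), and without any 1 mouse it stayed between 1.58 and 1.76 with an edgeR adjusted p of at most 0.0113. In NMUR1+ cells Stx11 averaged 459 ± 65.9 CPM in NMU mice against 453 ± 58.8 CPM in PBS mice, and in NMUR1- cells 459 ± 87.8 CPM in NMU mice against 452 ± 89.7 CPM in PBS mice (SD over 4 libraries each). The NMU effect was larger in ILC2 than in NMUR1+ cells by 1.67 (SE 0.24, edgeR adjusted p = 8.84e-04) and than in NMUR1- cells by 1.66 (SE 0.24, edgeR adjusted p = 0.00101). Over both treatments Stx11 was lower in ILC2 than in NMUR1+ cells (-1.36, SE 0.12, edgeR adjusted p = 5.21e-09).

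Sytl2 encodes a synaptotagmin-like protein that binds Rab27a on granules. It had 74.2, 62.3, 81.5 and 68.6 CPM in ILC2 with NMU against 26.6, 15.0, 25.3 and 20.6 CPM with PBS, again with no overlap (log2 difference 1.69, SE 0.24, edgeR adjusted p = 0.0169). Its effect was larger in ILC2 than in NMUR1+ cells by 1.47 (edgeR adjusted p = 0.0195) and than in NMUR1- cells by 1.50 (edgeR adjusted p = 0.0168). Without mouse 3, 4, 5 or 8 the ILC2 difference was between 1.62 and 1.81 and no longer passed (edgeR adjusted p up to 0.0671). Those differences of effects no longer passed without mouse 1, 3, 5 or 8 against NMUR1+ cells, or without mouse 1, 3, 6 or 8 against NMUR1- cells (edgeR adjusted p up to 0.0711 and 0.0644). Serpinb6a, an intracellular serine protease inhibitor, differed by 2.26 (SE 0.21, edgeR adjusted p = 0.00156), and its NMU effect exceeded that in NMUR1+ cells by 2.18 (edgeR adjusted p = 0.0189) and in NMUR1- cells by 2.07 (edgeR adjusted p = 0.0245). These no longer passed without mouse 1, 3, 4, 5 or 6 and without mouse 1, 3, 5 or 6 (edgeR adjusted p up to 0.0793 and 0.153), nor without the libraries of high immunoglobulin content (0.179 and 0.0734), where Sytl2 also missed against NMUR1+ cells (0.0668). Tnfsf10 had 71.0, 57.9, 67.6 and 57.1 CPM with NMU against 34.6, 30.6, 26.4 and 22.8 CPM with PBS (log2 difference 1.13, SE 0.21, edgeR adjusted p = 0.0440), and it no longer passed when any 1 of the 8 mice was left out (edgeR adjusted p up to 0.151). Of the 9 tested genes for granule maturation and release, the other 7, among them Rab27a, Unc13d and Stxbp2, did not pass, and the list's median was 0.00 against -0.03 over all genes. No gene passed among 2 tested cargo genes, 10 killer receptors and adaptors, 5 transcription factors or 5 ligand genes. Klrg1, a killer cell receptor gene listed here among the ILC2 markers, was higher with NMU (log2 difference 0.82, SE 0.14, edgeR adjusted p = 0.0300). It was the 1 that passed of 9 tested ILC2 markers, and its protein was used to sort these cells. The ILC2 libraries with NMU held a summed 30.96 to 349 CPM of macrophage and dendritic cell markers against 55.3 to 868 CPM with PBS, and 0 to 30.1 CPM of fibroblast markers against 11.3 to 383 CPM. Both of these overlapped, whereas B and plasma cell markers summed to 936 to 1758 CPM with NMU against 2131 to 17117 CPM with PBS, and epithelial markers to 38.4 to 65.0 CPM with NMU against 13.6 to 32.2 CPM with PBS. Of 8 tested B and plasma cell markers 0 passed, with a median log2 difference of -2.78, and Cd79b went the other way (1.135, SE 0.30, edgeR adjusted p = 0.128). Of 4 epithelial markers tested, Epcam was higher with NMU, at 32.8 to 60.9 CPM against 8.42 to 14.4 CPM with PBS (log2 difference 1.88, SE 0.32, edgeR adjusted p = 0.0308), and the other 3 did not pass, with Krt8 at -3.81 and Krt19 at -1.91. Epcam no longer passed without mouse 3, 4, 5, 6, 7 or 8 (edgeR adjusted p up to 0.105). The part of such cells in these differences was not tested.

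**Figure D5:**
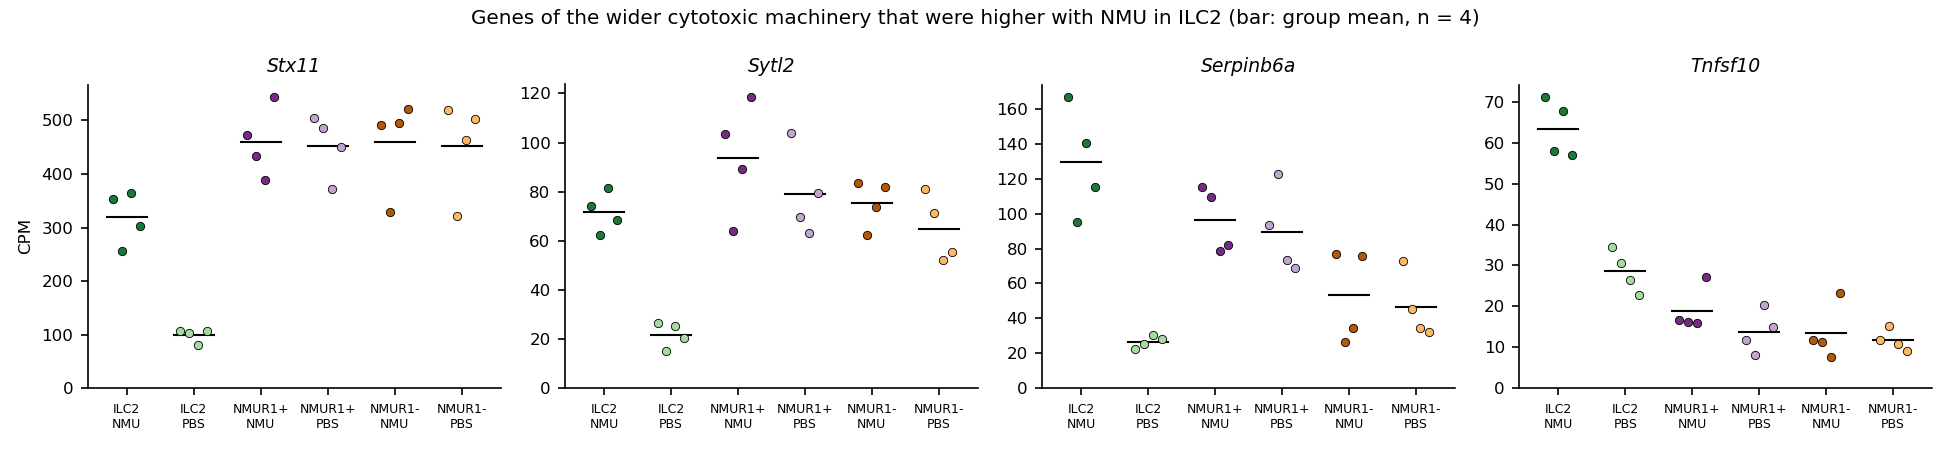
Levels in CPM of Stx11, Sytl2, Serpinb6a and Tnfsf10 in the 24 libraries, with a bar at each group mean (n = 4). In ILC2 the 4 NMU libraries of each gene lie above the 4 PBS libraries, and for Stx11 they average 319.7 against 99.4 CPM, below the CD4 means of 452 to 459 CPM.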

How the data were processed

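The 9 genes and all gene lists were chosen with earlier results of these data known. Per the labels' protocols, the RNeasy Micro Kit gave the RNA, and the NEBNext low-input kit, which amplifies cDNA, gave the libraries. Per the submitters' processing notes, reads were aligned with STAR 2.5.3 to mm10. How reads were counted, with which annotation and with what strand setting, is not given in the sources used here. Raw counts per gene and library, not normalized, were deposited by the authors. Of its 27179 identifiers, 25275 (93%) matched a RefSeq symbol of GRCm38.p6, and the rest held 0.986% of counts and stayed in the tests unnamed. Zfp683 and 3 gamma-delta receptor genes of the lists had no match.

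The main test was edgeR 4.0.16 (R 4.3.3): filterByExpr with a minimum count of 10, TMM scaling, robust quasi-likelihood fits, and Benjamini-Hochberg adjustment over all genes that entered a fit, at a threshold of 0.05. NMU was compared with PBS on the 8 libraries of each population, and populations and NMU effects in 1 fit of all 24. The fits were checked on simulated counts. CPM come from the 24-library TMM factors, 0.719 to 1.16. Lengths per kilobase are union exons of GENCODE M21. Floors are 3 counts over a group and cover counting error only, since reads are amplified copies without molecular identifiers. Alternatives were DESeq2 1.42.0 and its size factors, limma 3.58.1 voom, no filter, immunoglobulin genes left out, other sample sets, the mouse as a block and each mouse left out. One alternative, leaving out libraries above 20% immunoglobulin counts, was chosen after seeing the data.

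All 9 genes are reported in each group. From each other list, up to 3 genes per direction with the largest change past the threshold and at least 10 CPM in the higher group could be named, and likeness is Pearson's r of log2 CPM between genes of the set (mean of at least 1 CPM) and other genes (mean of at least 10 CPM). Genes named with levels at 0, or as not passing, fall outside that rule. The same animal gave all 3 populations per the labels, which pairs libraries by mouse, and the deviations of a mouse's libraries from their group means correlated at r of -0.0112 to 0.432. No replicate pair agreed within sampling noise (lowest chi-square per degree of freedom 15.5). The spread in a group joins that of animals, sorting and library preparation.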

Additional observations from a re-analysis of the deposited data

Results flagged for a closer look

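In 5 of 53 groups of 4 libraries that were checked, the highest library stood apart from the other 3 by Dixon's criterion. For normally distributed values chance gives this in about 1 of 20 groups, a rate that need not hold for CPM from few or 0 counts. All 5 were ILC2 groups. Gzma stood at 1194 CPM in NMU mouse 3, against 186 CPM in the next library, and at 102.1 CPM in PBS mouse 7, against 13.4 CPM in the next. Gzmb stood at 31.2 CPM in PBS mouse 6, with the next library at 11.2 CPM. Gzmk had 2.14 CPM in NMU mouse 2 and Klrd1 1.25 CPM in PBS mouse 5, in both cases with 0 counts in the other 3 libraries of the group. With 0 in those libraries any positive value meets the criterion. In mouse 3 the ILC2 library also held the highest Prf1 level of the 24 libraries (47.9 CPM), and Ncr1 there was 13.7 CPM, against 0 to 23.7 CPM in the other NMU mice. Its Cd3g level was 123 CPM, against 16.7 to 55.6 CPM in the other 7 ILC2 libraries and 618.1 to 1191 CPM in CD4 libraries, and its Cd4 level of 13.4 CPM was the highest in ILC2. In the library of NMU mouse 2, Cd8b1 was 5.07 CPM, against 0 to 0.154 CPM in the other 7 ILC2 libraries. The part of other cells in these libraries was not tested.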

How the results depend on the processing

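The number of genes of the set that passed moved by more than 1.5 times in 4 cases. NMU against PBS in NMUR1- cells gave 1 with DESeq2 against 0. NMUR1+ against NMUR1- cells gave 1 in NMU mice alone, 0 in PBS mice alone and 1 without the libraries above 20% immunoglobulin counts, against 4. Signs turned for genes of the set that did not pass, and for Serpinb6a and Dcn, which had passed: Prf1 (-0.018) with NMU in NMUR1+ cells and Prf1 (-0.30) in NMUR1+ over NMUR1- cells without the libraries of high immunoglobulin content, Klrk1 (0.17, voom) with NMU in NMUR1- cells, Gzma (0.35, NMU mice), Nkg7 (-0.0079, voom; -0.30, NMU mice; -0.053, without high-immunoglobulin libraries), Serpinb6a (0.42, NMU mice) and Dcn (0.17, PBS mice) in ILC2 over NMUR1+ cells, Gzma (-2.11, voom; -1.27, block; -0.80, PBS mice) and Cd160 (-0.19, PBS mice) in ILC2 over NMUR1- cells, and Gzma (0.083, block) in the difference of NMU effects between NMUR1+ and NMUR1- cells. The causes were not tested. With each mouse left out, log2 differences of NMU over PBS ran from -0.60 to 0.98 for Fasl and -0.51 to 0.089 for Klrk1 in ILC2, from -0.37 to 0.44 for Gzmb, -0.94 to 0.081 for Cd160 and -0.29 to 0.90 for Klrd1 in NMUR1+ cells, and from -0.085 to 0.56 for Gzmk, -0.15 to 0.38 for Cd160 and -0.33 to 0.20 for Klrk1 in NMUR1- cells. Those of ILC2 ran from -0.0016 to 0.24 for Nkg7 over NMUR1+ and from -0.98 to 0.63 for Gzma over NMUR1- cells. With the mouse as a replicate block, Gzmb joined the 4 genes that passed between NMUR1+ and NMUR1- cells (0.92) and no other gene of the set changed its call. Treatment comparisons share no mice, so no block applies there. Between NMUR1+ and NMUR1- cells Gzmb also passed with DESeq2, voom, immunoglobulin genes left out or the 16 libraries compared. The last of these further passed Gzma (edgeR adjusted p = 0.0200). In NMU or PBS mice alone Gzmk and Fasl no longer passed there (edgeR adjusted p from 0.144 to 0.258), nor did Cd160 in PBS mice (0.0726) or Nkg7 in either or with voom (0.0512). Klrd1 no longer passed in ILC2 over NMUR1+ cells in NMU mice, PBS mice or the 16 libraries compared (edgeR adjusted p from 0.0695 to 0.311), nor in ILC2 over NMUR1- cells in NMU mice (0.114). Over all genes, the 74 calls of NMU in ILC2 became 472 with DESeq2, 1053 in the fit of 24 libraries and 12 to 63 with a mouse left out. The 1123 between NMUR1+ and NMUR1- cells became 2104 in their 16 libraries, 218 in NMU mice, 227 in PBS mice, 393 without the libraries of high immunoglobulin content and 609 to 1035 with a mouse left out. ILC2 over NMUR1+ cells gave 3287 in NMU and 3354 in PBS mice against 5218, and ILC2 over NMUR1- cells 3437 in PBS mice against 5471. The 98 and 72 differences of NMU effects from ILC2 became 516 and 387 with DESeq2, 21 and 25 with voom, 46 and 36 with the block, and 15 and 27 without the libraries of high immunoglobulin content; the 98 became 54 with no filter, and a mouse left out gave 30 to 106 and 20 to 83. Depth limits Gzmk and Klrd1 in ILC2, where 19 and 55 counts carry 8 libraries.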
